A study of Mus musculus with 4 samples.

Results

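Neutrophil granule genes encode the enzymes and antimicrobial proteins that neutrophils store in granules, and 8 of them are described here: Mpo, Elane, Prtn3, Ltf, Camp, Ngp, Lcn2 and Retnlg. They were chosen by name, with earlier results of these data known. All 8 were found among the 24442 genes of the deposited count table, and all 8 passed the filter on low counts, as 11661 genes did. The data are RNA sequencing of mammary gland cells from 5-week-old female mice carrying Lgr6-eGFP-CreErt2, an allele that puts a green fluorescent protein and an inducible Cre recombinase under the control of the Lgr6 locus. Cells of 2 Lgr6-positive and 2 Lgr6-negative libraries all came from mice with this allele, and no drug or other treatment is given in the labels. The labels describe enzymatic digestion, lysis of red cells and a sort from lineage-negative cells, but list no lineage markers and do not define the Lgr6-negative gate. Libraries were amplified from very little RNA. Whether libraries of 1 population came from separate animals is not said, so the spread that p-values measure is that between these libraries and may be technical.

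Neutrophils fill their granules in sequence while they mature in the bone marrow. Primary granules, made at the promyelocyte stage, carry myeloperoxidase and serine proteases, and secondary granules, made later, carry lactoferrin, cathelicidin and lipocalin. Transcription of these genes is largely shut off before the mature cell enters the blood. Lactoferrin and lipocalin 2 are also secreted by glandular epithelium, and mammary epithelium releases lactoferrin into milk.

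The libraries held 6819127 and 6995568 counts in Lgr6-positive and 6920996 and 7167465 in Lgr6-negative cells, of which the ribosomal RNA precursor Rn45s took 14.5% to 17.2% and 18.7% to 30.8%. Lgr6 itself had 172 and 655 counts in Lgr6-positive and 3 and 10 in Lgr6-negative libraries (adjusted p = 0.0510). In edgeR's quasi-likelihood test, 524 genes were higher (4.49% of those tested) and 533 lower (4.57%) in Lgr6-positive cells at a Benjamini-Hochberg adjusted p under 0.05, and 956 and 1030 without Lgr6-positive replicate 1. Scaling by library size alone put 65.8% of the calls on the higher side, in place of 49.6%, and set the median log2 fold change of all tested genes at 0.56 instead of 0.10.

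The granule genes did not move as a group. In Lgr6-positive cells the 3 primary granule genes and Ngp were lower, the secondary granule genes Lcn2 and Ltf were higher, and Camp and Retnlg did not pass the test. That is 4 of 8 lower and 2 of 8 higher, beside 4.57% and 4.49% over all tested genes, or 6 of 8 beside 9.06% in either direction. Because the 8 were chosen with earlier results of these data known, these shares describe them and are no test. The median log2 fold change of the 8 was -3.61, also with genes at 0 counts set at their bound, against 0.10 over all tested genes. In each of the 8 genes the libraries of the 2 populations did not overlap, but this was so for 56.0% of all tested genes. Both Lgr6-positive libraries were above both Lgr6-negative ones in 3 of the 8, beside 30.0% of all tested genes, and below them in 5 of the 8, beside 25.9%.

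**Figure D1:**
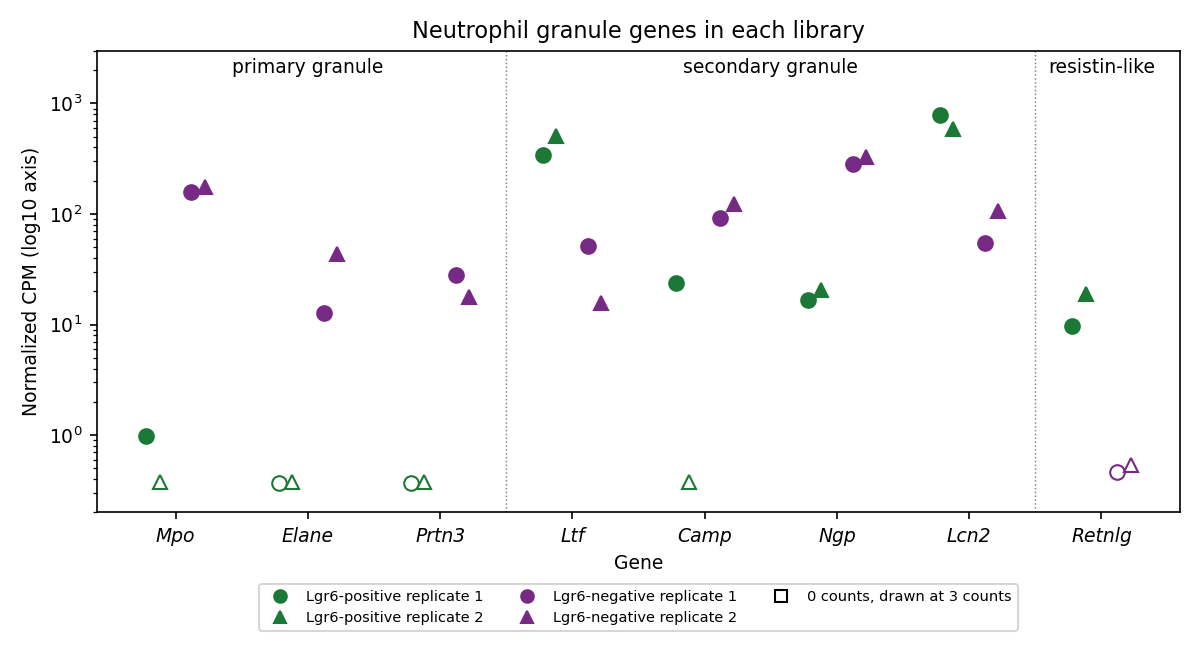
Normalized CPM (counts scaled to the TMM-adjusted library size, log10 axis) of each granule gene in the Lgr6-positive (green) and Lgr6-negative (purple) libraries, 1 point per library, with libraries at 0 counts drawn open at the level of 3 counts. Lcn2 and Ltf lie higher in both Lgr6-positive libraries, Mpo, Elane, Prtn3, Ngp and Camp lie lower, and Retnlg has counts in Lgr6-positive libraries alone.

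Mpo, Elane and Prtn3 were nearly or wholly without counts in Lgr6-positive cells. Mpo encodes myeloperoxidase, which makes hypochlorous acid from hydrogen peroxide and chloride. It had 8 and 0 counts in Lgr6-positive libraries, against 1023 and 984 counts in Lgr6-negative libraries. The Lgr6-negative libraries thus lay close together, and the 8 counts came from replicate 1 of the Lgr6-positive population. Mpo averaged 0.490 ± 0.694 CPM in Lgr6-positive and 167 ± 10.8 CPM in Lgr6-negative cells (SD, n = 2 libraries each, as for all means here), with a log2 fold change of -8.35 (SE 1.30, adjusted p = 0.00596). The log2 fold change was -13.12 without Lgr6-positive replicate 1, a fitted value against 0 counts and no bound, and -7.41 without replicate 2, and the call held under all 12 alternative settings. In bulk samples, fewer cells of a type and less RNA per cell cannot be told apart.

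Elane encodes neutrophil elastase, a serine protease, and had no counts in either Lgr6-positive library, against 82 and 247 counts in the Lgr6-negative libraries. No counts allow up to 0.368 and 0.380 CPM in the Lgr6-positive libraries at a limit of 3 counts. Against that limit per library, Elane was at least 75.8-fold lower in Lgr6-positive cells (adjusted p = 0.0362), with 28.4 ± 22 CPM in Lgr6-negative cells. Prtn3, the gene of the related protease proteinase 3, also had no counts in Lgr6-positive libraries, against 179 and 99 counts in Lgr6-negative libraries. It was at least 60.9-fold lower (adjusted p = 0.0422), with 22.8 ± 7.30 CPM in Lgr6-negative cells. The proteases thus differed between the Lgr6-negative libraries in opposite ways, Elane higher in replicate 2 and Prtn3 higher in replicate 1. Each gene passed in 10 of 12 alternatives, but each call was lost when 1 of the Lgr6-negative libraries was left out. For Prtn3 the bound without Lgr6-negative replicate 1 was 47.05-fold. Without Lgr6-negative replicate 2, Elane was at least 34.2-fold lower and did not pass (adjusted p = 0.182, in a range from 1.94e-05 over the alternatives), and without replicate 1 its bound was 117-fold. Without Lgr6-negative replicate 1, Prtn3 did not pass (0.0893, in a range from 5.82e-05), and neither gene passed with scaling by library size alone (0.0539 for Elane and 0.0580 for Prtn3).

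The proteases are neighbours on chromosome 10 of GRCm38, the build also called mm10. Prtn3 spans bases 79874476 to 79883174 and Elane 79886247 to 79888215, both on the plus strand, with 3072 bases between them. Mpo lies on chromosome 11 from 87793581 to 87804413, also on the plus strand. Of the exonic bases of Mpo, 15.0% are covered by an antisense gene, and of those of Prtn3 9.2% by Plppr3 on the other strand, so part of their reads cannot be assigned without strand. Plppr3, listed under its older symbol Lppr3, had 47.1 and 0 counts in Lgr6-positive and 0 and 237 counts in Lgr6-negative libraries (named after its value was seen). Its counts were highest in the Lgr6-negative library in which Prtn3 was lower, and the effect of the antisense overlap on the Prtn3 counts was not tested. The promoters of the 3 primary granule genes are shown because these genes fell together. They run from 250 bases before to 50 bases after the RefSeq start (GRCm38.p6), 5′ to 3′ on the gene's strand. The RefSeq start lies inside the gene's span in GENCODE for 7 of the 8 genes, all but Retnlg. Capitals mark AGGAAGT, a core bound by ETS family factors such as PU.1, and CAACGG, a core bound by MYB.
Mpo (chr11:87793534-87793833, plus strand): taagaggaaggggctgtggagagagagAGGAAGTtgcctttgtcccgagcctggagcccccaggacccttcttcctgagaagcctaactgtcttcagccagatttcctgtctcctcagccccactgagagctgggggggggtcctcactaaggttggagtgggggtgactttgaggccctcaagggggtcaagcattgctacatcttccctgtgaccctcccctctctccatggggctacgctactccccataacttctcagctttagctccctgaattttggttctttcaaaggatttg
Elane (chr10:79886062-79886361, plus strand): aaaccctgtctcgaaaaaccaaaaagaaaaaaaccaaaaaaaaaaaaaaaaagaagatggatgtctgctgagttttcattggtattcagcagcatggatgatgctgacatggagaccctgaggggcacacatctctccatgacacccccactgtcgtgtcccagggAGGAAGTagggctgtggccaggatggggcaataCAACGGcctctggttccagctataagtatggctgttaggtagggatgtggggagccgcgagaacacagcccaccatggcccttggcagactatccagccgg
Prtn3 (chr10:79879417-79879716, plus strand): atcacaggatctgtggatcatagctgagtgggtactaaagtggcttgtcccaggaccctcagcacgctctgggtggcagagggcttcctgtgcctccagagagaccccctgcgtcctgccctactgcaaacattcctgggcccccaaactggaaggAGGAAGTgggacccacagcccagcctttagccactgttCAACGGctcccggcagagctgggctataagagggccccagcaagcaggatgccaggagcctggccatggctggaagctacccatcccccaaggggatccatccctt

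AGGAAGT began at position -223 in Mpo, -84 in Elane and -94 in Prtn3, counted from -1 at the base before the start. CAACGG began at -51 in Elane and -56 in Prtn3. With TTGCNNAA, a pattern bound by C/EBP factors, these were the 3 motifs searched on both strands, with letters chosen after the promoters had been read, and no match overlapped another in the 8 genes. Of all 32851 promoter windows of this length, 9.35% held AGGAAGT, 5.12% CAACGG and 10.8% TTGCNNAA. TTGCNNAA was not in the windows of the primary granule genes and was in those of Ltf, Ngp, Lcn2 and Retnlg. A match is a string of letters and not a site shown to be bound.

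Ngp, which had the highest level per length of the 8 genes in Lgr6-negative cells, encodes neutrophilic granule protein, a relative of the cathelicidins. It had 135 and 161 counts in Lgr6-positive libraries, against 1829 and 1864 counts in Lgr6-negative libraries. Replicates were close in both populations, and Ngp remained well above 0 in Lgr6-positive cells, unlike the primary granule genes. It averaged 18.5 ± 2.72 CPM in Lgr6-positive and 308 ± 32.5 CPM in Lgr6-negative cells, a log2 fold change of -4.06 (SE 0.53, adjusted p = 0.00267). It passed under all 12 alternatives, between -4.25 and -3.61. Camp encodes the precursor of the antimicrobial peptide cathelicidin. It had 195 and 0 counts in Lgr6-positive libraries, against 584 and 700 counts in Lgr6-negative libraries. The Lgr6-positive libraries thus disagreed, with Camp in replicate 1 above the Ngp count of that library and absent from the counts of replicate 2. Its log2 fold change was -3.17 (SE 1.69, adjusted p = 0.301). Camp passed without Lgr6-positive replicate 1 (1.91e-06, the lowest in a range up to 0.566) and without the filter on low counts (0.00858).

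Lcn2 and Ltf were higher in Lgr6-positive cells. Lcn2 encodes lipocalin 2, which binds bacterial siderophores and so withholds iron. It had 6476 and 4677 counts in Lgr6-positive libraries, against 354 and 602 counts in Lgr6-negative libraries. Every Lgr6-positive library stood far above every Lgr6-negative one. Lcn2 averaged 693 ± 142 CPM in Lgr6-positive and 81.1 ± 36.6 CPM in Lgr6-negative cells, a log2 fold change of 3.10 (SE 0.46, adjusted p = 0.00448). Ltf encodes lactoferrin, an iron-binding member of the transferrin family. It had 2786 and 4013 counts in Lgr6-positive libraries, against 326 and 89 counts in Lgr6-negative libraries. The populations did not overlap, and, relative to its mean, Ltf varied more among the Lgr6-negative libraries. Ltf averaged 425 ± 118 CPM in Lgr6-positive and 33.3 ± 24.8 CPM in Lgr6-negative cells, a log2 fold change of 3.67 (SE 0.64, adjusted p = 0.00986). Both genes passed under all 12 alternatives, Lcn2 between 2.68 and 3.63. Without Lgr6-negative replicate 1 Ltf reached 4.74, and without replicate 2 it was at 3.05.

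Ngp, Camp and Ltf lie on chromosome 9 of GRCm38, from 110419747 to 110423012, 109847379 to 109849617 (minus strand) and 111019271 to 111042767. Lcn2 lies on chromosome 2 from 32384633 to 32388252 on the minus strand. Exons of other annotated genes covered none of these 4 genes, nor Elane or Retnlg, and the 4 shared no stretch of 50 bases with transcripts of other genes. The promoters of Ngp, Ltf and Lcn2 are shown because all hold TTGCNNAA (capitals, either strand) while Ngp was lower and the others higher in Lgr6-positive cells.
Ngp (chr9:110419558-110419857, plus strand): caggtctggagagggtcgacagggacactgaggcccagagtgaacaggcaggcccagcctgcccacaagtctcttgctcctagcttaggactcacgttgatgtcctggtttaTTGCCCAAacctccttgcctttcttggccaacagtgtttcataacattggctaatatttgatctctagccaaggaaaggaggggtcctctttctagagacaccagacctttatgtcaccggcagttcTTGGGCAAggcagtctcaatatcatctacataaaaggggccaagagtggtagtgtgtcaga
Ltf (chr9:111019042-111019341, plus strand): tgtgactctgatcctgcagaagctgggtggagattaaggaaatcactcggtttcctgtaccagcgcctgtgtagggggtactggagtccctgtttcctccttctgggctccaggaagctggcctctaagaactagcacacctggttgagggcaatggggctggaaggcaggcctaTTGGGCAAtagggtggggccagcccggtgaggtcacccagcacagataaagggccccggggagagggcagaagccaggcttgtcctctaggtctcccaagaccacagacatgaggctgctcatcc
Lcn2 (chr2:32387690-32387989, minus strand): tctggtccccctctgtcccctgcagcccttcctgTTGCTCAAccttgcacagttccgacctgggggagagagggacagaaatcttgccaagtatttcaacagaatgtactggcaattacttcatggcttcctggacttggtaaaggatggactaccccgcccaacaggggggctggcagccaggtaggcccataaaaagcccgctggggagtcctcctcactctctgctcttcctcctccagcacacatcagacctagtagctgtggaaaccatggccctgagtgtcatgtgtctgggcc

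In Ngp the pattern began at -138 and, on the other strand, at -11. It began at -75 in Ltf, on the other strand, and at -216 in Lcn2. The window of Camp held none of the 3 motifs, which says only that these letters were not there.

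Retnlg had counts in Lgr6-positive libraries alone. It encodes a secreted resistin-like protein that in mice is known from bone marrow and neutrophils. It had 79 and 149 counts in Lgr6-positive libraries and no counts in either Lgr6-negative library. No counts allow up to 0.468 and 0.533 CPM there, so that Retnlg, at 14.3 ± 6.5 CPM in Lgr6-positive cells, was at least 28.5-fold higher. Without Lgr6-positive replicate 2 the bound was 19.35-fold. Of all 11661 tested genes, 608 had 0 counts in both libraries of 1 population. The adjusted p of 0.0725 missed the threshold. It passed in 4 of 12 alternatives, DESeq2 (0.00217, the lowest), limma-voom (0.0191), a stricter filter (0.0454) and without Lgr6-positive replicate 1 (0.0368), and the highest value was 0.204. Retnlg lies on chromosome 16 from 48872621 to 48874496. Its relatives Retn and Retnlb had no counts in any library, and Retnla had 63 counts, all in Lgr6-positive replicate 1 (named after their values were seen).

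**Figure D2:**
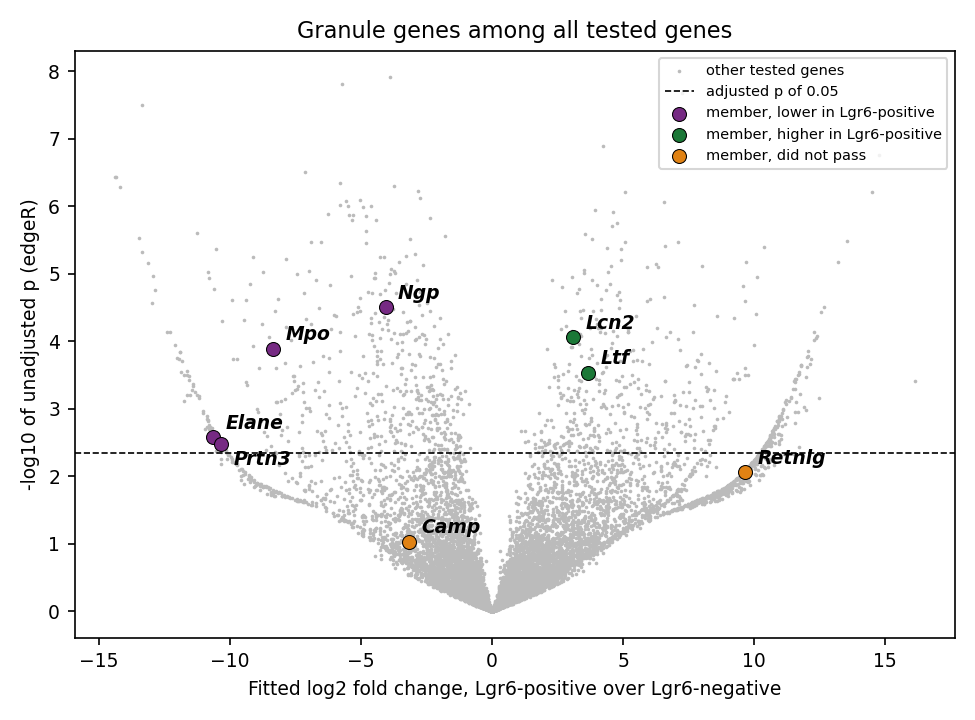
Fitted log2 fold change (Lgr6-positive over Lgr6-negative) against -log10 of the unadjusted edgeR p for the 11661 tested genes (grey), with the 8 granule genes named and the dashed line at an adjusted p of 0.05. Mpo, Ngp, Elane and Prtn3 lie above the line on the lower side, Lcn2 and Ltf on the higher side, and Camp and Retnlg lie below it; fitted values of Elane, Prtn3 and Retnlg rest on 0 counts in 1 population and are not bounds.

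Set against exon length, the order of the genes differed between the populations. In Lgr6-positive cells the levels in CPM per kilobase of exon were 264 for Lcn2, 123 for Ltf, 24.1 for Retnlg, 15.8 for Camp, 15.1 for Ngp and 0.143 for Mpo, with Elane and Prtn3 without counts. Lcn2, Ltf and the group of Retnlg, Camp and Ngp were set apart beyond the spread of the libraries, while Retnlg, Camp and Ngp overlapped and Camp, without counts in replicate 2, also overlapped Mpo. In Lgr6-negative cells they were 252 for Ngp, 142 for Camp, 48.9 for Mpo, 30.9 for Lcn2, 28.8 for Elane, 13.1 for Prtn3 and 9.66 for Ltf, with Retnlg without counts. There the libraries of Ngp, Camp, Mpo and Lcn2 were set apart in that order, and Lcn2 and Elane, Elane and Prtn3, and Prtn3 and Ltf overlapped. Within each library, Lcn2 stood at 22.3 and 13.5 times the level of Ngp per kilobase in Lgr6-positive cells, against 0.0902 and 0.150 times in Lgr6-negative cells.

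All 8 genes together took 0.142% and 0.129% of the counts in Lgr6-positive libraries, with exact (Clopper-Pearson) 95% intervals of 0.139% to 0.145% and 0.126% to 0.131%. They took 0.0632% and 0.0640% in Lgr6-negative libraries, with intervals of 0.0614% to 0.0651% and 0.0621% to 0.0658%. Such intervals, and the limit of 3 counts, cover counting error only, because the labels mention no molecular identifiers that would remove copies made by amplification. The makeup of these counts differed more than their sum. Lcn2 and Ltf supplied 95.7% and 96.6% of them in Lgr6-positive libraries, against 15.5% and 15.1% in Lgr6-negative libraries. The other 6 genes had 417 and 310 counts in Lgr6-positive libraries, against 3697 and 3894 in Lgr6-negative libraries.

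Other granule genes that passed the test were lower in Lgr6-positive cells, with 1 exception. Monocyte and macrophage markers were lower too (7 of 12 tested). Which cells the transcripts of these granule genes came from was not tested. In a list of 8 further primary granule genes, 6 were tested, 2 were lower, 1 was higher and 3 did not pass. Srgn, the serglycin proteoglycan that packs granule proteins, fell by 4.92 on the log2 scale (SE 0.42, adjusted p = 0.000528). Ctsc, the protease that activates granule serine proteases, fell by 3.73 (SE 0.41, adjusted p = 0.00143). The higher gene was Cd63 (3.12, SE 0.67, adjusted p = 0.0222), a tetraspanin of late endosomes and primary granules found in many cell types, which shares 11% of its 50-base stretches with other genes. Ctsg, the cathepsin G gene, had no counts in Lgr6-positive libraries and 16 and 95 in Lgr6-negative libraries (adjusted p = 0.0969). Prss57 and Bpi had no counts in any library (named after their values were seen).

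Of 17 other secondary and tertiary granule genes, 14 were tested, 9 were lower and 5 did not pass, with a median log2 fold change of -3.58. Of those 5, 3 had a negative and 2 a positive log2 fold change. Ptx3 had 46 and 109 counts in Lgr6-positive and no counts in Lgr6-negative libraries, at least 19.4-fold higher (adjusted p = 0.0933). Without Lgr6-positive replicate 2 its bound was 11.27-fold. Adam8 was at 0.96 (adjusted p = 0.491; both named after their values were seen). Pglyrp1, which encodes a peptidoglycan recognition protein, had no counts in Lgr6-positive libraries, against 903 and 1301 counts in Lgr6-negative libraries. Its level was at least 497.5-fold lower (adjusted p = 0.00106). Cybb, the catalytic subunit of the phagocyte oxidase, fell by 4.62 (SE 0.39, adjusted p = 0.000528). Chil3, a chitinase-like protein gene, fell by 4.42 (SE 0.40), and the lysozyme gene Lyz2 by 3.87 (SE 0.20), though 26.9% and 15.4% of their 50-base stretches occur in other genes. Fcnb, a ficolin gene, had no counts in Lgr6-positive libraries and 74 and 128 in Lgr6-negative libraries (adjusted p = 0.0580). The summed level of the list was 1611 and 1952 CPM in Lgr6-positive and 23720 and 24410 CPM in Lgr6-negative libraries. Lyz2 alone supplied 1040 and 1370 CPM of it in Lgr6-positive and 16972 and 18367 CPM in Lgr6-negative libraries. The sum thus mostly gives the level of Lyz2. Mmp9 had 2 and 0 counts in Lgr6-positive and no counts in Lgr6-negative libraries, and Olfm4 had none in any library (both named after their values were seen).

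Among 15 genes of neutrophil receptors and cytosol, 12 were tested, 7 were lower and 5 did not pass. Of those 5, 4 had a negative and 1 a positive log2 fold change. Trem1, an activating receptor gene, and the formyl peptide receptor gene Fpr1 were without counts in both Lgr6-positive libraries, at least 1025-fold and 77.4-fold lower. Siglece, an inhibitory lectin gene, was at least 85.8-fold lower, and Fpr2, a receptor for cathelicidin among other ligands, fell by 9.10 (SE 1.40, adjusted p = 0.00563), with 31.5% of its 50-base stretches shared with other genes. S100a9, a subunit of the cytosolic protein calprotectin, fell by 2.90 (SE 0.43, adjusted p = 0.00469), and Csf3r, the receptor for granulocyte colony-stimulating factor, was at -4.56 (SE 0.68, adjusted p = 0.00473) and shares 10.5% of such stretches. The summed level was 521 and 442 CPM in Lgr6-positive and 2108 and 1827 CPM in Lgr6-negative libraries. Members of the list differed widely in level. Csf3r had 52 and 109 counts in Lgr6-positive and 1864 and 1053 in Lgr6-negative libraries. The neutrophil surface marker Ly6g had no counts in any library, and the chemokine receptor gene Cxcr2 had 1 and 0 counts in Lgr6-positive and 1 and 20 in Lgr6-negative libraries (both named after their values were seen).

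Of 10 transcription factors of granulocyte development, 8 were tested, 3 were lower and 5 did not pass. Of those 5, 3 had a positive and 2 a negative log2 fold change. The 3 were Cebpd (1.51), Myb (1.35) and Runx1 (0.95), with adjusted p-values from 0.173 to 0.530 (named after their values were seen). Spi1, which encodes PU.1, fell by 7.14 (SE 0.53, adjusted p = 0.000481). Irf8 fell by 4.24 (SE 0.67, adjusted p = 0.00622) and Cebpb fell by 3.80 (SE 0.82, adjusted p = 0.0228; 20.7% of its exonic bases overlap an antisense gene), while Rara had an adjusted p of 0.0782. Cebpe, the C/EBP factor of secondary granule genes, had no counts in any library (named after its value was seen). In the 12 receptors and relatives of the granule proteins, 4 were tested. Trf, the transferrin gene, was higher (3.04, SE 0.34, adjusted p = 0.00151), but 63.5% of its exonic bases overlap other genes. Lrp1, a receptor for lactoferrin among many ligands, was at -1.31 (adjusted p = 0.0534), Lrp2 at 14 and 13 counts in Lgr6-positive libraries and none in Lgr6-negative libraries (adjusted p = 0.160), and Slc22a17, a receptor for lipocalin 2, at -0.10 (adjusted p = 0.990).

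**Figure D3:**
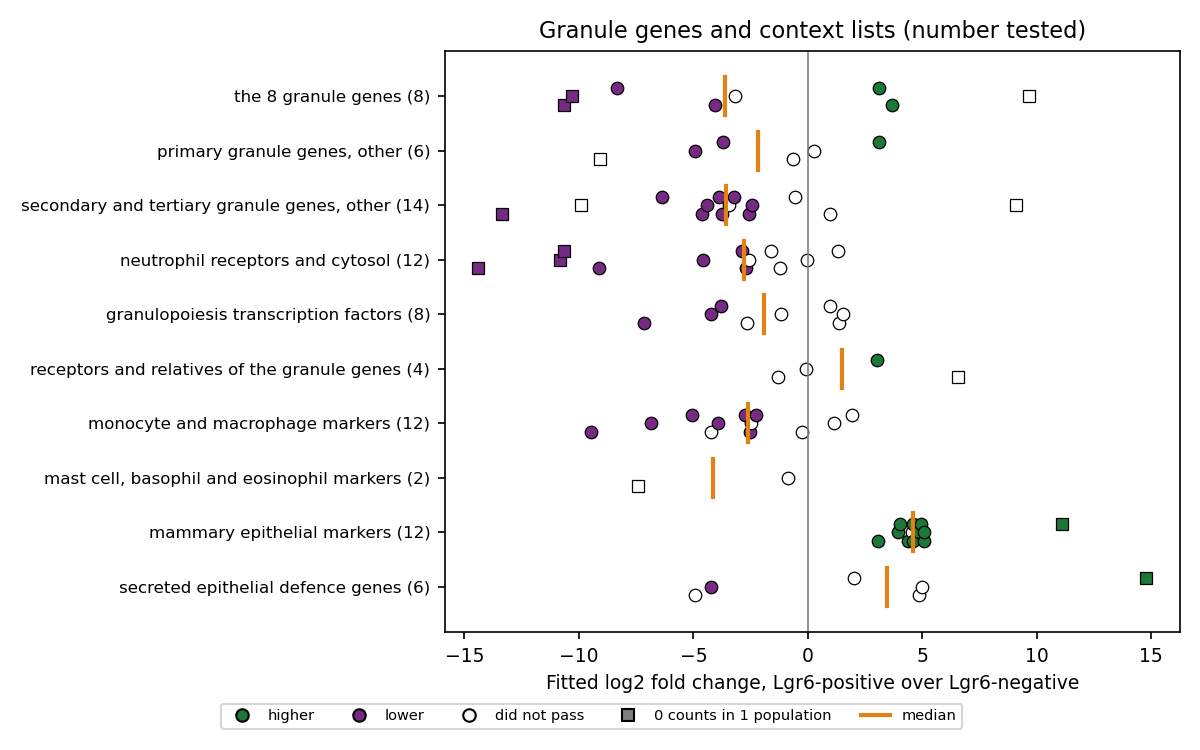
Fitted log2 fold changes (Lgr6-positive over Lgr6-negative) of the tested genes in each list, filled where the adjusted p is under 0.05 (green higher, purple lower), squares where 1 population has 0 counts, and an orange bar at the list's median. The granule genes spread from Elane to Retnlg, the leukocyte lists lie mostly below 0 and the mammary epithelial markers all lie above 0.

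Markers of other cell types moved in the same libraries, and their part in the granule gene differences was not tested. Of 13 monocyte and macrophage markers, 12 were tested, 7 were lower in Lgr6-positive cells and 5 did not pass. Of those 5, 3 had a negative and 2 a positive log2 fold change. The 2 were Mrc1 (1.91, adjusted p = 0.293) and C1qb (1.14, adjusted p = 0.622), named after their values were seen. The summed level of this list was 794 and 658 CPM in Lgr6-positive and 4634 and 5794 CPM in Lgr6-negative libraries. The log2 fold changes were -5.05 (SE 0.42) for the chemokine receptor gene Ccr2, -3.92 (SE 0.46) for Csf1r, of which 15.1% overlaps an antisense gene, -9.45 (SE 1.29) for Cx3cr1 and -2.73 (SE 0.33) for the cathepsin gene Ctss, with adjusted p-values from 0.000528 to 0.00334. Of 9 mast cell, basophil and eosinophil markers, 2 could be tested. Prg2 had no counts in Lgr6-positive libraries and 11 and 25 in Lgr6-negative libraries (adjusted p = 0.125), and Gata2 was at -0.85 (adjusted p = 0.794). Neither passed in edgeR, DESeq2 or limma-voom, and 1 had an unadjusted p under 0.05. The list's summed level was 10.0 and 9.76 CPM in Lgr6-positive and 41.0 and 39.5 CPM in Lgr6-negative libraries. In Lgr6-positive libraries this was Gata2 alone, since the other 8 markers had no counts there.

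Of 12 mammary epithelial markers, 11 were higher in Lgr6-positive cells and 1 did not pass, beside the rise of Lcn2 and Ltf. Their summed level was 6308 and 6200 CPM in Lgr6-positive and 262 and 305 CPM in Lgr6-negative libraries, with Krt7 without counts in the Lgr6-negative libraries and at least 77.2-fold higher. The log2 fold changes were 5.09 (SE 0.41) for Krt19, 4.60 (SE 0.40) for Krt18, 4.59 (SE 0.42) for Krt14 and 5.07 (SE 0.50) for Epcam, with adjusted p-values from 0.000481 to 0.000872. Lcn2 and Ltf were also set against the counts of each epithelial marker within a library, which 11 of the 12 allowed, since Krt7 was at 0 in Lgr6-negative libraries. For Lcn2 the ratio was lower in both Lgr6-positive than in both Lgr6-negative libraries for 9 markers and overlapped for the other 2, Elf5 and Wfdc18. For Ltf it was lower in both Lgr6-positive libraries for 4 markers, Epcam among them, and overlapped for 7. The ratios of a gene all share its own counts, so they are not separate results. The median log2 fold change of the markers was 4.60, against 3.10 for Lcn2 and 3.67 for Ltf. Some markers had few counts in Lgr6-negative libraries, such as Elf5 (44 and 2) and Epcam (131 and 68). Counts of Lcn2 per count of Krt18, a luminal keratin, were 0.911 and 0.820 in Lgr6-positive and 1.62 and 3.38 in Lgr6-negative libraries. Lcn2 per count of Wfdc18 was 1.70 and 1.57 in Lgr6-positive and 1.11 and 2.08 in Lgr6-negative libraries. Ltf per count of Krt18 was 0.392 and 0.704 in Lgr6-positive and 1.50 and 0.500 in Lgr6-negative libraries, and per count of Epcam 0.624 and 0.934 in Lgr6-positive and 2.49 and 1.31 in Lgr6-negative libraries. The markers shown and these ratios were chosen after their values were seen and were not tested. Of 9 secreted epithelial defence genes, 6 were tested, 1 was higher, 1 was lower and 4 did not pass. Dmbt1 was at least 1001-fold higher, without counts in Lgr6-negative cells, and Slpi, a protease inhibitor of secretions that blocks elastase, was lower (-4.24, SE 0.82, adjusted p = 0.0150). Wfdc2 (4.85, adjusted p = 0.0528) and Muc1 (4.99, adjusted p = 0.120) did not pass.

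**Figure D4:**
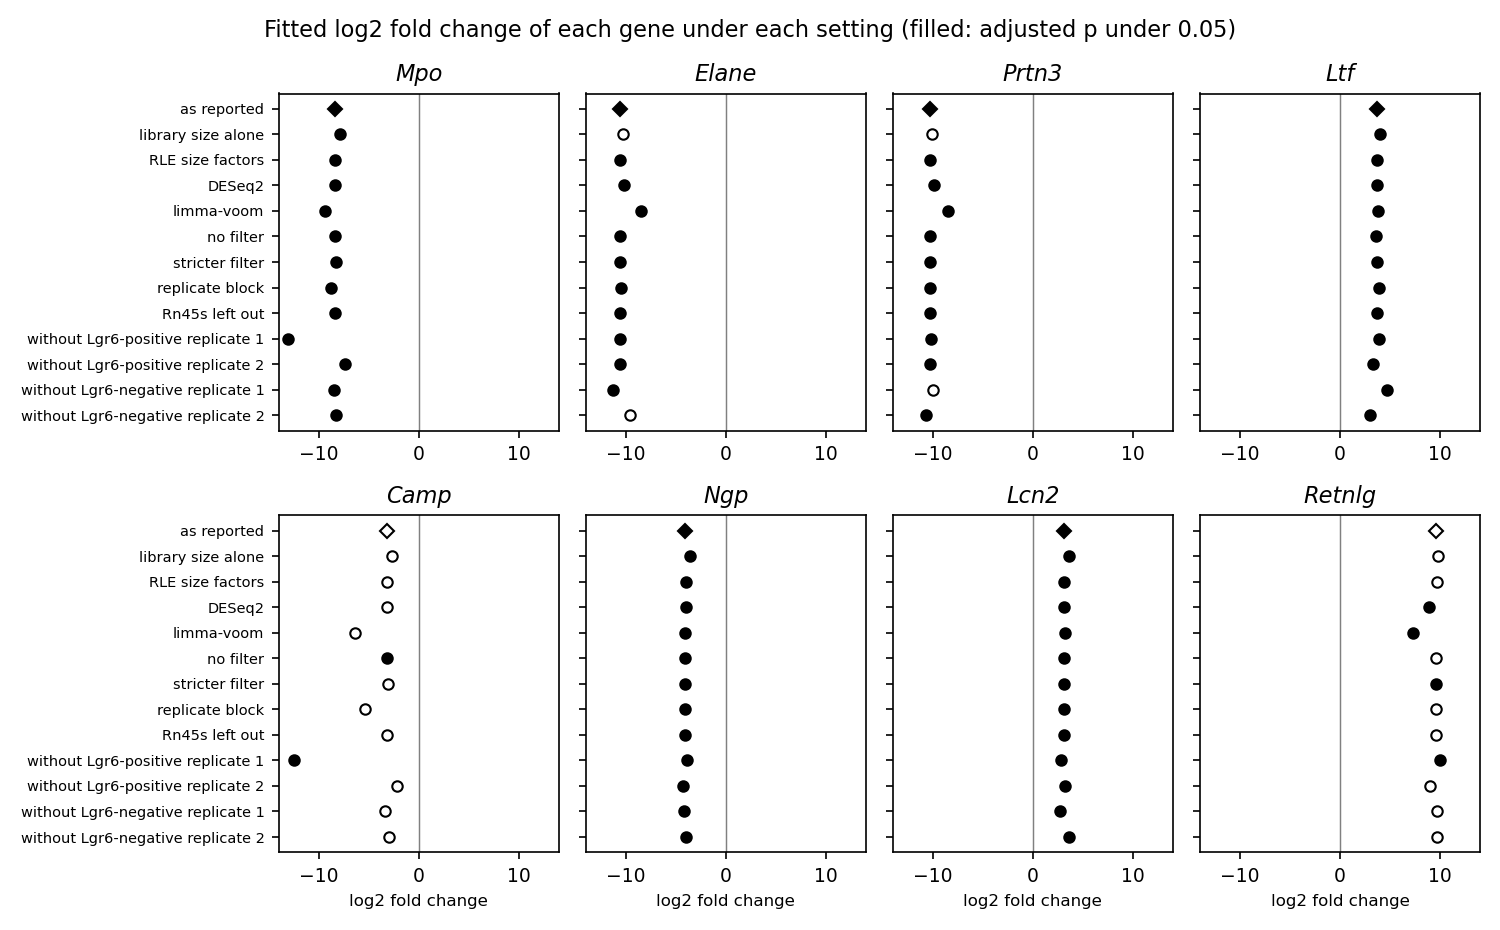
Fitted log2 fold change of each granule gene as reported (diamond) and under 12 alternative settings (circles), filled where the adjusted p is under 0.05. No gene changed sign under these settings; Mpo, Ltf, Ngp and Lcn2 passed under each of them, Elane and Prtn3 under 10, Retnlg under 4 and Camp under 2.

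The genes with the most similar pattern over the 4 libraries were different ones for each granule gene. Likeness was taken as the distance between centred log2 CPM profiles over the 4 libraries, too few points to single out any gene, and gene models known by number were passed over. Nearest were Ear2 and Clec4d to Mpo, Sh2d1b1 and Klrb1c to Elane, Traf3ip3 and Il10 to Prtn3, Fam49a and Lyz2 to Ngp, and Rap2a and Pot1b to Camp. Sdc1 and Zxdc were nearest to Lcn2, Fbxw17 and Sorbs2 to Ltf, and Chp2 and Txnrd3 to Retnlg. The distances ran from 0.0427 to 0.521. Granule genes lay at least 1.71 apart, the least between Elane and Prtn3, but the nearest of all tested genes are bound to lie closer than a few preset ones. Ranked by nearness among all tested genes, the primary granule genes stood to each other from 110 (Prtn3 to Elane) to 385 (Mpo to Prtn3). The secondary granule genes stood to each other from 1076 (Lcn2 to Ltf) to 11520 (Camp to Ltf).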

How the data were processed

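Per the submitters' processing notes, RSEM 1.2.22 and STAR 2.4.2a with build mm10 were used, and what the authors deposited is a single table with the expected count of each gene in the 4 libraries. Annotation, strand setting and trimming: not given in the sources used here. In each library 3.36% to 4.86% of values were fractional, and values were rounded to whole counts. Groups came from the sample titles. Replicates differed beyond counting noise (chi-square per degree of freedom 101 and 86.4).

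Counts were tested with edgeR 4.0.16 in R 4.3.3 (TMM scaling, filterByExpr with minimum count 10 and total 15, glmQLFit and glmQLFTest with group alone, Benjamini-Hochberg adjustment over 11661 genes). SE was obtained by dividing the size of the log2 fold change by the root of the F statistic. CPM are TMM-normalized. A population at 0 counts was set at 3 counts per library for a fold bound, and fitted fold changes of such genes are not bounds. The steps were tested on simulated data. DESeq2 1.42.0 and limma 3.58.1 served as alternatives. Gene positions and exon lengths came from GENCODE M21, and promoters, found for all 8 genes, from RefSeq (GRCm38.p6). Python 3.11.15 was used for the rest.

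The 8 genes and all lists were chosen with earlier results of these data known. Beside the 8, the text names up to 4 tested genes of each list with the smallest p, list genes at 0 in 1 population with at least 50 counts in each library of the other, and the 2 nearest genes by profile. Others are said to be named after their values were seen.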

Additional observations from a re-analysis of the deposited data

How the results depend on the processing

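Of 12 alternatives, none turned the direction of a granule gene. Over all genes, DESeq2 gave 1412 higher and 1003 lower calls, no filter 967 and 854, and scaling by library size 327 lower, while leaving out single libraries gave 678 to 956 higher and 540 to 1030 lower, the highest of each without Lgr6-positive replicate 1. Granule genes lower numbered 2 with library-size scaling, where Elane (-10.33) and Prtn3 (-10.11) did not pass. Without single libraries Elane ran from -11.32 to -9.60, Prtn3 from -10.72 to -10, Camp from -12.49 to -2.20 and Retnlg from 9.01 to 9.97. Camp passed without a filter (-3.19), and Retnlg in DESeq2 (8.91), limma-voom (7.34) and with a stricter filter (9.65). Without Rn45s in the total, the 8 genes took 0.171% and 0.150% of Lgr6-positive and 0.0778% and 0.0925% of Lgr6-negative counts. The causes were not tested.

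Among the lists, other secondary and tertiary granule genes had 1 higher call in DESeq2 and in limma-voom. Neutrophil receptors and cytosol had 1 higher without a filter and 0 to 1 without single libraries, and transcription factors 0 to 1 higher, the 1 in each list arising without Lgr6-positive replicate 1. Receptors and relatives had 1 lower in limma-voom, without a filter, with a stricter filter and with the replicate block, and 0 to 1 without single libraries (1 without Lgr6-positive replicate 2 and without Lgr6-negative replicate 1). Secreted epithelial defence genes had 2 higher with library-size scaling, RLE, limma-voom, a stricter filter and the block, 3 in DESeq2 and without a filter, 2 lower in DESeq2 and limma-voom, and 1 to 2 higher and 1 to 2 lower without single libraries. That list had 2 lower without Lgr6-positive replicate 1 and 2 higher without each other library.

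The replicate numbers were not shown to pair the libraries: deviations of same-numbered libraries from their group means correlated at -0.02 across genes. With the replicate block, 678 genes were higher and 662 lower, and 2 granule genes were higher and 4 lower, as without it. With 1 library left in a population, that library is assumed to vary like the others. At this depth, genes with fewer than 3 counts in a library cannot be told from 0.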

Other observations

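Ratios of granule genes to S100a8 and to Ptprc differed between genes and did not all run the same way. Ngp per count of S100a8, the other subunit of calprotectin, was 0.236 and 0.617 in Lgr6-positive and 0.819 and 0.991 in Lgr6-negative libraries. Mpo per count of S100a8 was 0.0140 and 0 in Lgr6-positive and 0.458 and 0.523 in Lgr6-negative libraries. Camp per count of S100a8 was 0.340 and 0 in Lgr6-positive and 0.262 and 0.372 in Lgr6-negative libraries, which overlap. Retnlg per count of S100a8 was 0.138 and 0.571 in Lgr6-positive and 0 in both Lgr6-negative libraries. Ngp per count of Ptprc, the pan-leukocyte gene CD45, was 0.343 and 0.870 in Lgr6-positive and 0.164 and 0.279 in Lgr6-negative libraries, the opposite order to its ratio to S100a8. S100a8 per count of Ptprc was 1.45 and 1.41 in Lgr6-positive and 0.200 and 0.281 in Lgr6-negative libraries, so that S100a8 stood higher against Ptprc where both were low. Stfa2l1, a stefin gene of mouse neutrophils that shares 24.6% of its 50-base stretches with other genes, had 7 and 305 counts in Lgr6-positive and no counts in Lgr6-negative libraries, with nearly all of them in replicate 2. These ratios were chosen after values were seen and were not tested.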
